A study of Mus musculus with 10 samples.

Results

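RNA of cardiomyocytes isolated on day 4 after myocardial infarction (MI) was sequenced in 10 libraries, 1 per mouse, and the 43 genes described here are its heat shock, chaperone and unfolded protein genes. They were chosen by gene symbol from a fixed list, matched to the Ensembl identifiers of the count table, and all 43 of 43 were found among 51789 genes. The NLC-MI group held 5 non-transgenic littermate control mice, and the TgGRK5-MI group held 5 mice that overexpress G protein-coupled receptor kinase 5 (GRK5) in cardiomyocytes only. Both groups had undergone coronary ligation, and no sham-operated library was analysed here, so every value is one after MI. The strain and the age of the 10 mice are not in the labels, and the sources used here do not describe the promoter of the transgene. The paper gives an age range and both sexes for its operated mice, without assigning either to single libraries. The comparison asked whether overexpression of GRK5 changes the cardiomyocyte transcriptome after ischaemic injury.

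Chaperones bind unfolded or partly folded proteins and keep them from aggregating until they fold or are degraded. In the cytosol, heat shock factor HSF1 switches on the inducible HSP70 genes and their cochaperones when unfolded protein accumulates. In the endoplasmic reticulum (ER) the unfolded protein response raises ER chaperones through ATF6 and XBP1 and stress genes through ATF4. Cardiomyocytes hold large amounts of small heat shock proteins, which bind sarcomere and cytoskeletal proteins.

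Libraries held between 7968779 counts in NLC-MI replicate 3 and 23381527 counts in NLC-MI replicate 2, and the next shallowest were TgGRK5-MI replicates 4 and 3 (9114469 and 12833652 counts). Grk5 itself, on chr19:60889749-61095968 of GRCm38, was at 46.5 to 73.0 CPM (counts scaled to the size of the library) in NLC-MI and at 551 to 1698 CPM in TgGRK5-MI, so all libraries matched their labels. The 13 cardiomyocyte markers summed to 68918 to 173774 CPM in NLC-MI and 73273 to 138247 CPM in TgGRK5-MI, and none was at 0 in any library. Markers of other cells were present too, with 4027 to 24086 and 4194 to 24745 CPM for 7 fibroblast markers, 703 to 2121 and 1156 to 2380 CPM for 9 macrophage markers, 661 to 1343 and 627 to 1412 CPM for 5 endothelial markers, 732 to 1708 and 1082 to 1938 CPM for 5 smooth muscle and pericyte markers and 9.69 to 24.9 and 12.6 to 30.4 CPM for 5 neutrophil markers. In such bulk samples, fewer cells of a type and less RNA per cell cannot be told apart.

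All 43 members passed the filter on low counts. Levels were taken per kilobase of annotated exon, with all exons of a gene merged, for a rough comparison of genes. They spanned from Cryab at 2219 CPM per kb in NLC-MI and 2353 in TgGRK5-MI to Trib3 at 1.32 and 1.24. Small heat shock proteins took the first 3 places of this order, with Cryab (αB-crystallin), Hspb7 at 1232 and 998 CPM per kb and Hspb6 at 618 and 745. The constitutive HSP70 gene Hspa8 followed at 589 and 702 CPM per kb, and the constitutive HSP90 gene Hsp90ab1 at 583 and 609. The mean levels of Hspb6, Hspa8 and Hsp90ab1 differed by less than the spread of Hspb6 between libraries, so their order is not resolved. Ranks also depend on the length used. The merged exons of Hspa8 hold 4301 bases against 2394 in its longest coding transcript, and those of Hsp90b1 4032 against 2825. By merged exons, the highest ER member was Calr (calreticulin, a calcium-binding chaperone of glycoproteins) at 215 and 224 CPM per kb, next to Hspa5 (BiP, the HSP70 of the ER) at 214 and 210. The highest mitochondrial member was Hspa9 (mortalin, the HSP70 of mitochondria) at 185 and 174 CPM per kb, and the highest transcription factor was Atf4 at 56.4 and 65.6.

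**Figure D1:**
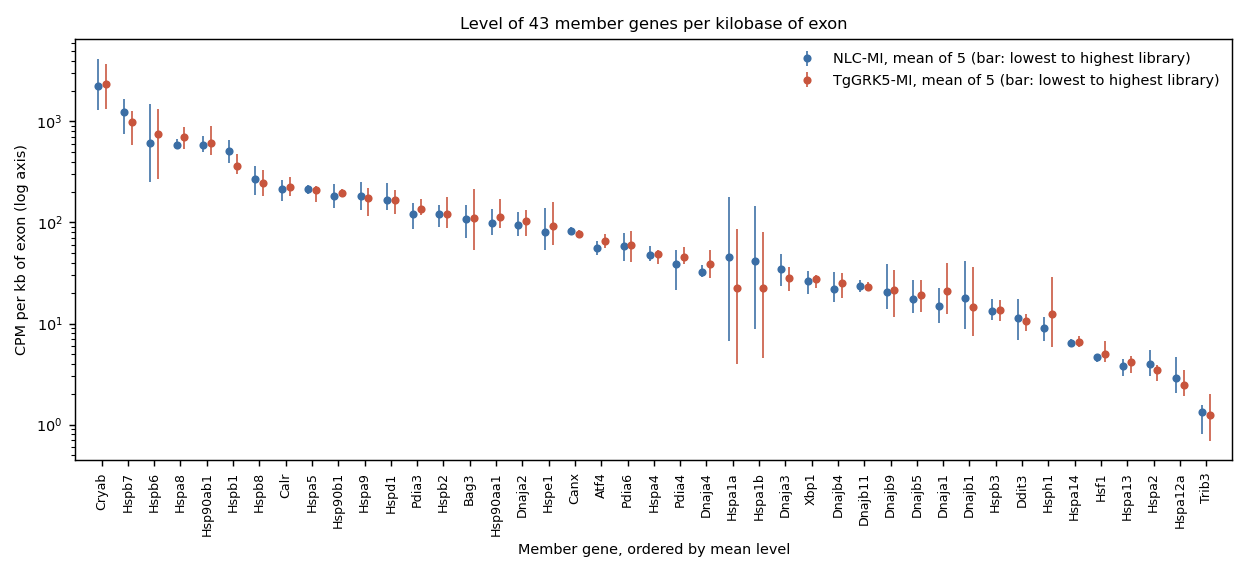
Level of the 43 members in CPM per kilobase of exon (log axis), ordered by their mean. Points are means of 5 libraries and bars run from the lowest to the highest library of NLC-MI (blue) and TgGRK5-MI (red). The bars of both groups overlap for every member, and they are longest for Hspa1a and Hspa1b.

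Between the groups, no member passed an adjusted p under 0.10 in edgeR's quasi-likelihood test, which called 12 of all 15232 genes tested (0.0788%). At an unadjusted p under 0.05, 0 members were higher in TgGRK5-MI, where 269 of all genes were (1.77%), and 1 member was lower, where 317 of all genes were (2.08%). DESeq2 and limma-voom also called 0 members at an adjusted p under 0.10. No member had groups of libraries that did not overlap, against 153 of all genes (1.00%). Of the 43 log2 fold changes (TgGRK5-MI over NLC-MI), 27 were above 0 and 16 below. Their median was 0.04, beside 0.00 over all genes tested, and they ran from -1.03 for Hspa1a to 0.50 for Dnaja1. The members were not called more often than all genes, with 1 of 43 past the unadjusted threshold in either direction.

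**Figure D2:**
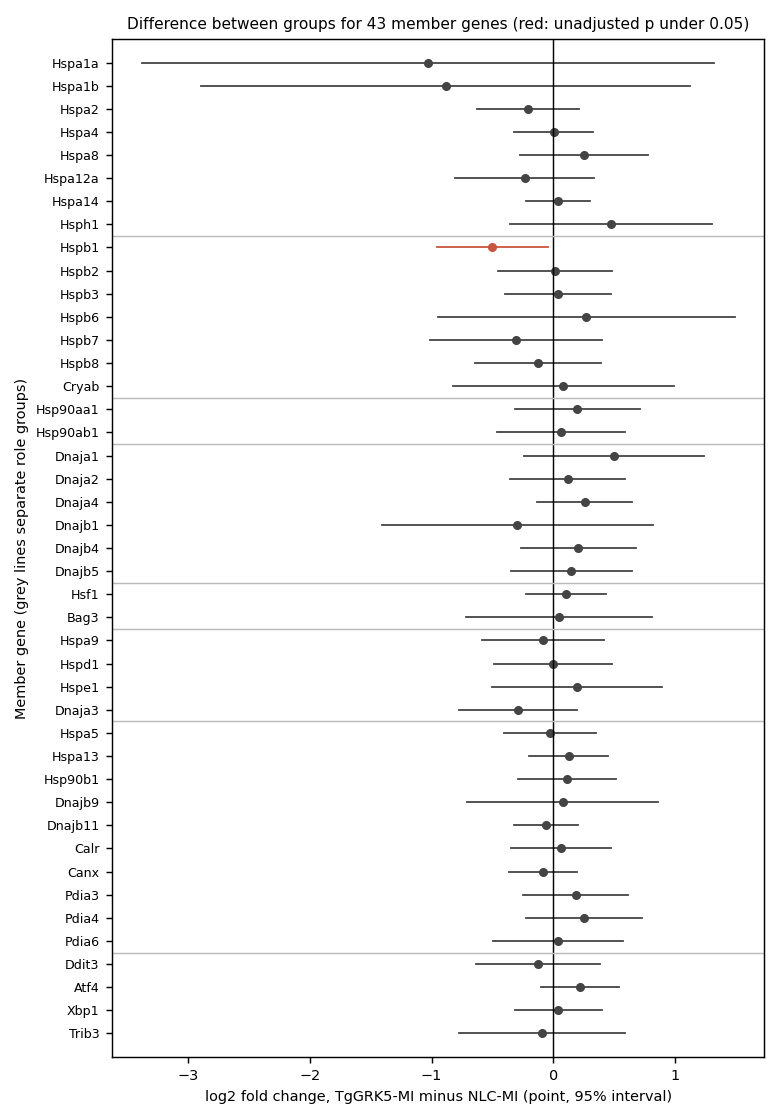
Log2 fold change of TgGRK5-MI over NLC-MI for the 43 members (point) with its 95% interval from the edgeR fit (line), in role groups separated by grey lines. The interval lies on 1 side of 0 for Hspb1 alone (red), and it is widest for Hspa1a and Hspa1b.

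The member below the unadjusted threshold was Hspb1 (ENSMUSG00000004951, chr5:135887919-135889563), which encodes HSP25, an actin-binding small heat shock protein that p38 signalling phosphorylates. It measured 502, 430, 634, 675 and 398 CPM in NLC-MI replicates 1 to 5 and 319.6, 320.4, 494, 309.9 and 421 CPM in TgGRK5-MI replicates 1 to 5. TgGRK5-MI replicates 1, 2 and 4 lay below every NLC-MI library, while replicates 3 and 5 lay within the NLC-MI range. The log2 fold change was -0.50 (standard error 0.21, 95% interval -0.95 to -0.05, unadjusted p = 0.0334, adjusted p = 1.00, edgeR quasi-likelihood), and the two-sided exact permutation test gave p = 0.0476, the one member of 43 under 0.05 there. The unadjusted p moved between 0.0121 and 0.0902 as each library was left out, and it was above 0.05 without NLC-MI replicate 3 or 4 or TgGRK5-MI replicate 1, 2 or 4, with log2 fold changes from -0.63 to -0.40. The processed pseudogene Hsp25-ps1, 99.8% identical over 441 bases, held counts equal to 1.45% of those of Hspb1.

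The other small heat shock proteins did not pass the test. Hspb7, which binds actin filaments in the sarcomere, was between 2062 and 4611 CPM in NLC-MI and 1637 and 3521 CPM in TgGRK5-MI (log2 fold change -0.30, standard error 0.32). Hspb8, the partner of the cochaperone BAG3, had a log2 fold change of -0.12 (standard error 0.24), and Hspb3 one of 0.04 (standard error 0.20). Hspb6 (HSP20) measured 583, 740, 3384, 998 and 1394 CPM in NLC-MI and 1248, 625, 3031, 2844 and 820.4 CPM in TgGRK5-MI replicates 1 to 5. Its 3 highest values were those of NLC-MI replicate 3 and TgGRK5-MI replicates 3 and 4, the 3 libraries with the fewest counts. Cryab measured 1927, 1932, 6198, 3763 and 2588 CPM in NLC-MI and 2686, 1951, 5480.5, 4412 and 2868 CPM in TgGRK5-MI, with the same 3 libraries at the top. The log2 fold changes of Hspb6 and Cryab were 0.27 (standard error 0.56) and 0.08 (standard error 0.42). The pattern of the 3 shallowest libraries as the 3 highest held for 7 members (16.28%: Hspa4, Hspb6, Cryab, Dnajb4, Hsf1, Hspe1 and Dnajb9), beside 9.454% of all genes tested, and the part of depth in these levels was not tested.

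Hspb2 and Cryab lie head to head on chromosome 9 and share 252 bases of annotated exon on opposite strands. The strand setting of the counting is not given in the sources used here, so reads in the shared bases could be counted for either gene, and Hspb2 held only 17064 counts beside the 520779 counts of Cryab. Hspb2 measured 80.7, 74.6, 115, 123 and 107 CPM in NLC-MI and 87.2, 73.7, 148, 82.7 and 115 CPM in TgGRK5-MI (log2 fold change 0.02, standard error 0.22).

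The stress-inducible HSP70 genes Hspa1a and Hspa1b, with the cochaperone Dnajb1 (HSP40) that drives their ATPase cycle, set 2 of the 10 libraries apart. Hspa1a (chr17:34969190-34972156) measured 57.7, 20.0, 535, 41.2 and 28.3 CPM in NLC-MI replicates 1 to 5 and 14.8, 18.6, 257, 11.7 and 31.4 CPM in TgGRK5-MI replicates 1 to 5. The libraries numbered 3 were the highest in both groups, 15.4-fold above the median of the other 4 libraries in NLC-MI and in TgGRK5-MI alike. Hspa1b (chr17:34956436-34959238), 9951 bases from Hspa1a on the same strand, measured 72.4, 30.2, 405, 53.2 and 24.7 CPM in NLC-MI and 21.02, 29.1, 225, 12.7 and 28.9 CPM in TgGRK5-MI. Dnajb1 (chr8:83608193-83612653) measured 52.0, 28.3, 133, 37.3 and 39.0 CPM in NLC-MI and 28.4, 28.6, 116, 24.2 and 38.6 CPM in TgGRK5-MI. For Hspa1b the libraries numbered 3 were 9.71-fold and 9.02-fold above the median of the other 4, and for Dnajb1 3.49-fold and 4.07-fold.

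**Figure D3:**
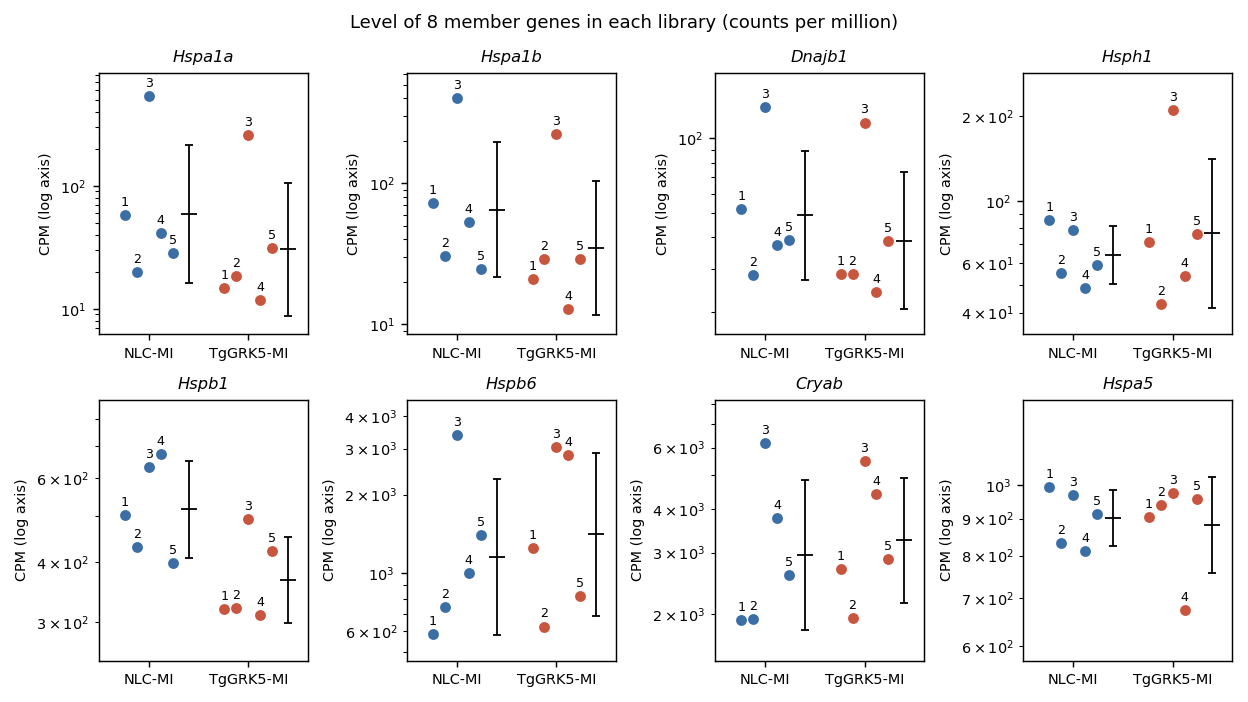
CPM (log axis) of 8 members in every library, with the replicate number above each point, NLC-MI in blue and TgGRK5-MI in red. The black bar beside each group is the mean and SD of the log2 values of its 5 libraries. The points numbered 3 stand above the rest in both groups for Hspa1a, Hspa1b and Dnajb1, whereas for Hsph1 only TgGRK5-MI replicate 3 does, at 209.8 CPM.

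With both libraries numbered 3 included, the log2 fold changes were -1.03 (standard error 1.08, unadjusted p = 0.358) for Hspa1a, -0.88 (standard error 0.92, unadjusted p = 0.357) for Hspa1b and -0.30 (standard error 0.51, unadjusted p = 0.574) for Dnajb1 in edgeR's quasi-likelihood test. With both left out, Hspa1a was at -0.95 (unadjusted p = 0.0280), Hspa1b at -0.98 (unadjusted p = 0.0232) and Dnajb1 at -0.40 (unadjusted p = 0.0964), each with an adjusted p of 0.932 in edgeR. Without NLC-MI replicate 3 alone the values turned positive, at 0.86, 0.49 and 0.27, and without TgGRK5-MI replicate 3 alone they were -2.83, -2.34 and -0.95 (unadjusted p = 0.0144, unadjusted p = 0.0139 and unadjusted p = 0.0419 in edgeR). Leaving out the library numbered 3 of NLC-MI turned the sign of the difference in these 3 genes, and leaving out that of TgGRK5-MI changed its size and kept the sign. Over the 8 libraries not numbered 3, Hspa1a was at 20.0 to 57.7 CPM in NLC-MI and 11.7 to 31.4 CPM in TgGRK5-MI, ranges that overlap.

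Hspa1a and Hspa1b encode nearly the same protein, and their transcripts were 99.2% identical over 2201 bases, so the split of reads between them is uncertain. The share of Hspa1a in the joint counts was 38.94% to 56.95% across libraries. With both counted as 1 feature the libraries numbered 3 still stood apart, since both genes were high in the same libraries.

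The within-group spread of log2 CPM gave the same members from another side. Its SD was 1.83 for Hspa1a and 1.59 for Hspa1b, above 98.9% and 98.6% of all genes tested, followed by Hspb6 at 1.01, Dnajb1 at 0.89 and Hsph1 at 0.67. The median over the 43 members was 0.36, beside 0.39 over all genes tested. The smallest spread was that of Canx (calnexin) at 0.09, followed by Hspa14 at 0.11 and Dnajb11 at 0.13.

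The 2 highest libraries were those numbered 3 for 11 members (25.58%: Hspa1a, Hspa1b, Hspa4, Hspb6, Cryab, Hsp90aa1, Hsp90ab1, Dnaja1, Dnajb1, Bag3 and Hspe1), beside 663 of all genes tested (4.353%). None of these 11 is an ER chaperone or an unfolded protein response factor, a list too short for their absence to stand out from 4.353%. The ER chaperone Dnajb9 was 2.50-fold and 1.96-fold above the median of the other 4 in the libraries numbered 3. It is not among the 11 because TgGRK5-MI replicate 4 was at 87.2 CPM. Hsp90aa1 (inducible HSP90) was at 535 and 669 CPM in the libraries numbered 3 and at 295 to 480.3 CPM in the other 8. Bag3, a cochaperone of HSP70 that carries sarcomere proteins to autophagy, was at 384 and 553 CPM against 136 to 349. Hspe1 (mitochondrial HSP10) was at 207 and 234 CPM against 78.3 to 149.7. Against the median of the other 4 libraries, 27 members (62.8%) were higher and 8 (18.6%) lower in the library numbered 3 of both groups, beside 32.0% and 34.3% of all genes tested. Of the 14 ER and unfolded protein members, 5 were higher in both (Hspa5, Hsp90b1, Dnajb9, Calr and Atf4) and 6 lower (Hspa13, Dnajb11, Pdia4, Pdia6, Xbp1 and Trib3).

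**Figure D4:**
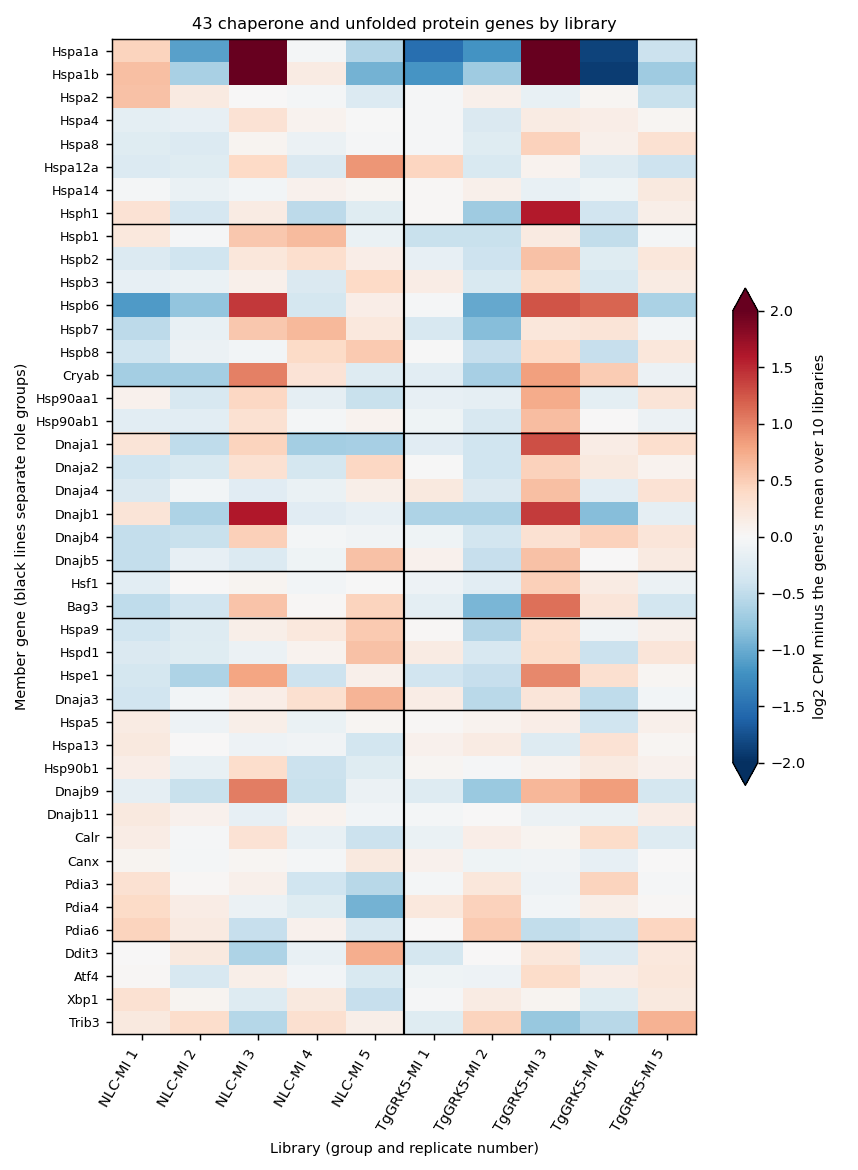
Log2 CPM of each member minus its mean over the 10 libraries (colour, cut at -2 and 2), with libraries in columns and members in rows by role group. The columns numbered 3 are dark red for Hspa1a, Hspa1b and Dnajb1 in both groups, while in these columns Dnajb9 is the one ER chaperone that is clearly red in both.

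The libraries numbered 3 also differed in other ways. They were the shallowest of NLC-MI and the second shallowest of TgGRK5-MI, and the 21 immediate early genes, which the steps of cell isolation are known to switch on, summed to 3579 and 2312 CPM there, the highest value of each group (1625 to 3084 and 1306 to 1618 CPM in the other libraries). The 9 macrophage markers summed to 703 and 1156 CPM there, the lowest value of each group (712 to 2121 and 1252 to 2380 CPM in the other libraries). The 7 fibroblast markers, at 5813 and 4194 CPM, and the 13 cardiomyocyte markers, at 101324 and 138247 CPM, were the lowest and the highest of the group in TgGRK5-MI, while in NLC-MI replicate 5 was further out on both (4027 and 173774 CPM). NLC-MI replicate 5 also had the next highest immediate early sum of its group, 3084 CPM, with Hspa1a at 28.3 CPM. Whether depth, cell isolation or cell composition had a part in the level of the inducible heat shock genes was not tested.

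Pairs of members were compared over libraries after removing the mean of each group. Since the libraries numbered 3 form a cluster of their own for Hspa1a, its pairs were read over the other 8 libraries. Hspa1a and Dnajb1 varied together among these 8, with r = 0.94 (two-sided exact permutation test, p = 0.00129, adjusted 0.0142 over 11 pairs) and rho = 0.83 (exact p = 0.0154, adjusted 0.0798). Hspa1a and Hspa1b had r = 0.86 (exact p = 0.00895, adjusted 0.0492) and rho = 0.81 (exact p = 0.0218, adjusted 0.0798), a pair that also shares near-identical sequence. Hspa1a and Hsph1 (HSP110, the nucleotide exchange factor of HSP70) had r = 0.49 and rho = 0.38 (exact p = 0.218 and 0.36), and Hspa1a and the mean of the immediate early genes had r = 0.31 and rho = 0.26 (exact p = 0.448 and 0.536).

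**Figure D5:**
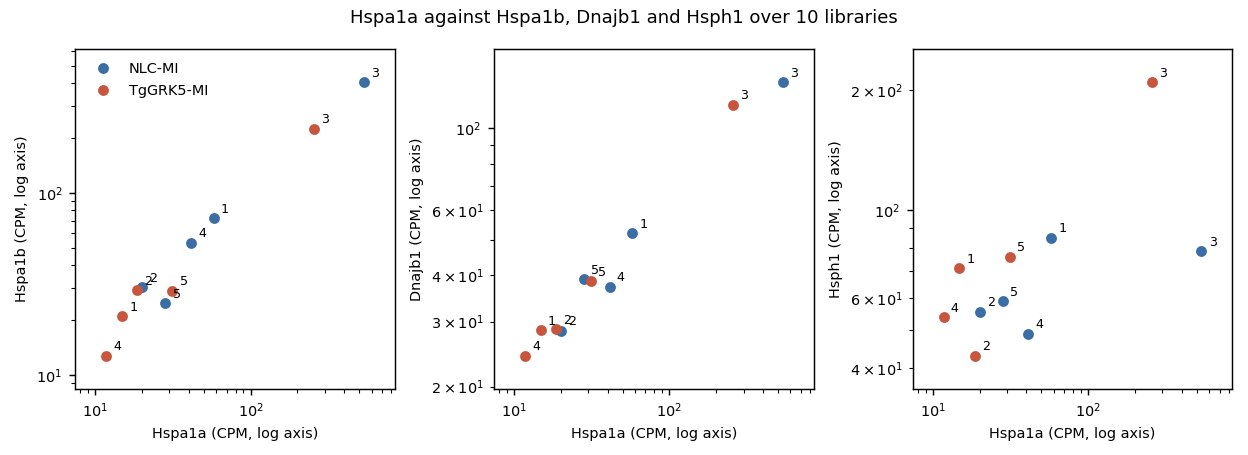
CPM of Hspa1b, Dnajb1 and Hsph1 against Hspa1a (both axes log), 1 point per library with its replicate number, NLC-MI in blue and TgGRK5-MI in red. Hspa1b and Dnajb1 tend to rise with Hspa1a, though not in the same order in every library, while Hsph1 is high in TgGRK5-MI replicate 3 and not in NLC-MI replicate 3, at 78.8 CPM.

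Hsp90aa1 and Hsph1 had r = 0.84 and rho = 0.78 over 10 libraries (permutation p = 0.00132 and 0.0106, adjusted 0.00484 and 0.0334), and r = 0.67 (exact p = 0.0759) without the libraries numbered 3, where it no longer passed. Hspb2 and Cryab had r = 0.72 and rho = 0.77 (permutation p = 0.0205 and 0.0122, adjusted 0.0377 and 0.0334), and r = 0.57 (exact p = 0.14) without TgGRK5-MI replicates 2 and 3. The other 5 pairs did not pass: r was 0.31 for Hspd1 and Hspe1, 0.25 for Hspa5 and Hsp90b1, 0.07 for Hspa5 and Pdia4, -0.44 for Atf4 and Trib3 and 0.39 for Ddit3 and Trib3 (permutation p = 0.384, 0.452, 0.824, 0.2 and 0.258, smallest adjusted p = 0.314), with rho of 0.30, 0.45, 0.04, -0.50 and 0.28 (permutation p = 0.406, 0.19, 0.918, 0.142 and 0.426). Without the 2 libraries farthest from the median, r was 0.51, 0.65, 0.03, -0.25 and 0.28 for these 5 (exact p = 0.196, 0.085, 0.937, 0.548 and 0.494). Over these 8 libraries Hspa5 and Hsp90b1 had rho = 0.83 (exact p = 0.0154, adjusted 0.0798), and with library size alone as the scaling they had r = 0.84 (exact p = 0.00412, adjusted 0.0201) and rho = 0.88 (exact p = 0.00724, adjusted 0.0398), so the result for this ER pair depends on the libraries and the scaling. Within the groups, r of Hspa5 and Hsp90b1 was 0.82 in NLC-MI and -0.80 in TgGRK5-MI, each over 5 libraries and without a test. In TgGRK5-MI, replicate 4 had both the lowest Hspa5 (673 CPM) and the highest Hsp90b1 (855 CPM), so the negative r leans on 1 library.

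Promoter windows were searched for exact matches to forms of the element that heat shock factors bind. RefSeq gave 46 windows, each from 250 bases before to 50 bases after a start site (GRCm38.p6), for 35 of the 43 members. A gene counted once if any of its windows held the element. The 2-unit heat shock element GAANNTTC, which reads the same on both strands, was in 12 of these members (34.3%) and in 2442 of 27025 genes (9.04%). Its 3-unit form, 3 alternating GAA and TTC units with 2 bases between them, was in 3 members (8.57%: Hspd1, Hspe1 and Hsph1) and in 0.662% of genes. The stretches below, 5′ to 3′ on the strand of the gene and all upstream of its start site, hold the elements of the inducible HSP70 pair, of Hspb1 and of the Hspd1 and Hspe1 pair, with the element in capitals.
Hspa1a, chr17:34972238-34972275, minus strand: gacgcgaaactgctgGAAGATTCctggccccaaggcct
Hspa1b, chr17:34959320-34959357, minus strand: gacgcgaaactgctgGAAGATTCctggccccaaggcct
Hspb1, chr5:135887787-135887844, plus strand: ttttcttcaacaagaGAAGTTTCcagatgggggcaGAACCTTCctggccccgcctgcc
Hspd1, chr1:55088053-55088082, minus strand: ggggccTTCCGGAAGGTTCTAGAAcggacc

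The stretches of Hspa1a and Hspa1b were identical, and 247 of the 250 bases before their start sites matched at the same position (98.8%). In both genes the element began 104 bases before the start. The window of Dnajb1 held no match to these letters. Hspb1 held a pair of elements, starting 117 and 97 bases before its start. The stretch of Hspd1 lies in the 215 bases between the start sites of Hspd1 and Hspe1, which are read away from each other, so both genes share the element.

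The other cytosolic HSP70 members did not pass the test. Hspa8, which binds newly made cytosolic proteins, measured 2317, 2271, 2854, 2528 and 2692 CPM in NLC-MI and 2700, 2311, 3767, 2942 and 3372 CPM in TgGRK5-MI, a log2 fold change of 0.25 (standard error 0.24, unadjusted p = 0.313 in edgeR). Hspa4 had a log2 fold change of 0.00 (standard error 0.15), Hspa14 one of 0.04 (0.12), Hspa2 one of -0.21 (0.19) and Hspa12a one of -0.24 (0.26). Hsph1 measured 85.1, 55.5, 78.8, 48.8 and 58.8 CPM in NLC-MI and 71.3, 42.9, 209.8, 53.7 and 76.2 CPM in TgGRK5-MI, so its log2 fold change of 0.47 (standard error 0.38, unadjusted p = 0.238 in edgeR) came with 1 high library, and the other 4 TgGRK5-MI libraries ran from 42.9 to 76.2 CPM.

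Among HSP90 and DNAJ genes, Hsp90ab1 had a log2 fold change of 0.06 (standard error 0.24) and Hsp90aa1 one of 0.20 (standard error 0.23). Dnaja1, a cytosolic HSP40, measured 169, 98.9, 192, 88.2 and 88.4 CPM in NLC-MI and 119.9, 107, 342, 155 and 178 CPM in TgGRK5-MI. Its log2 fold change of 0.50 was the highest of the 43 (standard error 0.34, unadjusted p = 0.165 in edgeR), and the groups overlapped. Of its exons, 608 bases are shared with Smu1 on the opposite strand. The processed pseudogene Gm15542, 99.4% identical to Dnaja1 over 1194 bases, held counts equal to 11.4% of those of Dnaja1. The 6 cytosolic DNAJ genes had a median of 0.18, with Dnaja2 at 0.12 (standard error 0.22). Hsf1, the transcription factor of the heat shock response, was at 29.6 to 35.5 CPM in NLC-MI and 29.5 to 47.5 CPM in TgGRK5-MI (log2 fold change 0.10, standard error 0.15), and that of Bag3 was 0.05 (standard error 0.35).

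The 4 mitochondrial members gave log2 fold changes of -0.09 for Hspa9 (standard error 0.23), 0.00 for Hspd1 (HSP60, standard error 0.22), 0.20 for Hspe1, the lid of the HSP60 chamber (standard error 0.32), and -0.29 for Dnaja3 (standard error 0.22, unadjusted p = 0.214 in edgeR). Hspd1 measured 351, 365, 395, 449 and 643 CPM in NLC-MI and 480.1, 343, 553, 319 and 508 CPM in TgGRK5-MI. Although Hspd1 and Hspe1 form one chaperonin and share a promoter, NLC-MI replicate 5 was the highest library for Hspd1 and TgGRK5-MI replicate 3 for Hspe1. Their annotated exons share 112 bases on opposite strands.

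The 10 ER chaperones had the lowest median within-group SD of the 8 role groups, 0.24 on the log2 scale. Hspa5 measured 994, 833, 969, 812 and 914 CPM in NLC-MI and 903, 940.3, 976, 673 and 957 CPM in TgGRK5-MI, a log2 fold change of -0.02 (standard error 0.17). Only TgGRK5-MI replicate 4 lay below the NLC-MI range. Hsp90b1 (GRP94, the HSP90 of the ER) measured 829.7, 684, 965, 559 and 637 CPM in NLC-MI and 782, 748, 794, 855 and 800.0 CPM in TgGRK5-MI, a log2 fold change of 0.11 (standard error 0.18), with every TgGRK5-MI library inside the NLC-MI range. Pdia4, a protein disulfide isomerase, had the smallest p of the group (log2 fold change 0.25, standard error 0.22, unadjusted p = 0.265 in edgeR), and Calr was at 0.06 (standard error 0.19). The 10 members lay between -0.08 and 0.25.

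The ER stress response element, to which ATF6 and NF-Y bind, is CCAAT and CCACG with 9 bases between them on either strand. It was in 5 of the 35 members with a window (14.3%: Calr, Canx, Hsp90b1, Hspa5 and Pdia6) and in 37 of 27025 genes (0.137%). The element of Hspa5 is shown because this gene is the standard readout of the unfolded protein response, with the element in capitals.
Hspa5, chr2:34772020-34772048, plus strand: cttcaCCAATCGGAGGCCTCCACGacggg

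None of the 4 unfolded protein response genes passed the test. Atf4, the effector of the integrated stress response, measured 144, 114, 154, 138 and 116 CPM in NLC-MI and 133, 132, 183, 158 and 166 CPM in TgGRK5-MI (log2 fold change 0.22, standard error 0.15, unadjusted p = 0.161 in edgeR). Its targets Ddit3 (CHOP, a proapoptotic factor) and Trib3 (a pseudokinase) were at -0.12 (standard error 0.23) and -0.09 (standard error 0.31), and Xbp1 was at 0.04 (standard error 0.16). Trib3 was the lowest member, with 1.48 to 4.24 CPM (13 to 82 counts) over the 10 libraries. Gene counts do not separate the spliced from the unspliced form of Xbp1.

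Further genes of the same pathways were counted from 5 other lists. Of their 87 genes (cytosolic cochaperones, the TRiC chaperonin, UPR sensors and ER targets, ATF4 targets, and mitochondrial proteostasis), 85 were tested, and Derl3 and Fgf21 fell under the filter. At an unadjusted p under 0.05, none of them was higher in TgGRK5-MI and 3 were lower, beside 1.77% and 2.08% of all genes, and their median log2 fold change was 0.02. Wfs1, an ER membrane protein involved in ER calcium balance, measured 83.4, 113, 152, 188 and 164 CPM in NLC-MI and 108, 66.3, 117, 93.8 and 79.5 CPM in TgGRK5-MI (log2 fold change -0.59, standard error 0.23, unadjusted p = 0.0250 in edgeR). Unc45a, a myosin chaperone, was at 19.5 to 27.6 CPM in NLC-MI and 14.3 to 23.7 CPM in TgGRK5-MI (log2 fold change -0.37, standard error 0.16, unadjusted p = 0.0417 in edgeR). Ddit4 (REDD1, an mTOR inhibitor that stress induces) was at 26.6 to 47.0 CPM in NLC-MI and 14.9 to 44.3 CPM in TgGRK5-MI (log2 fold change -0.64, standard error 0.29, unadjusted p = 0.0479 in edgeR). All 3 had an adjusted p of 1.00, and the groups overlapped in each.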

How the data were processed

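Cardiomyocyte RNA (Trizol extraction, Illumina TruSeq RNA v2 kit) was sequenced from 5 NLC-MI and 5 TgGRK5-MI mice. The table deposited by the authors holds raw counts, as whole numbers, for each Ensembl gene. The submitters' processing notes name Bowtie2, RSEM 1.2.31, DESeq2 and build mm10, without their roles, so the deposited counts may be rounded RSEM estimates. The strand setting and the annotation version are not given in the sources used here. Groups and replicate numbers come from the labels. The p-values measure the spread between mice.

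Counts were analysed in R 4.3.3. In edgeR 4.0.16, TMM normalization and filterByExpr by group left 15232 of 28506 genes with counts, and the quasi-likelihood F test was run on all of them with Benjamini-Hochberg adjustment, at thresholds of an adjusted p under 0.10 (the threshold of the study) and an unadjusted p under 0.05. TMM factors enter the CPM values, and log2 CPM has a prior count of 2. Single genes were also tested with the two-sided exact permutation test over 252 placements (smallest p 0.00794). Correlations use group-centred log2 CPM with 100000 resamples, or all orders for 8 libraries. Positions and exon lengths come from GENCODE M21 (GRCm38), which held 51596 of the 51789 identifiers, promoters from RefSeq (GRCm38.p6), and transcripts were compared with blastn 2.17.0. A share of 3 counts, the floor of the depth, was 0.128 to 0.376 CPM.

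The members and lists were chosen with earlier results of these data known. Named are members with an unadjusted p under 0.05 or non-overlapping groups, in each of 8 role groups the member with the highest level per kb and the one with the smallest p, the 5 members with the largest within-group SD, members of the 11 pairs, and pathway genes with an unadjusted p under 0.05. Other names (such as Hspb3, Hspa4, Canx, Xbp1) were chosen after their values were seen. Alternatives were RLE factors, library size alone, DESeq2 1.42.0, limma-voom 3.58.1 with quality weights, 2 other filters, each library left out, a replicate block, a library size covariate, and Hspa1a and Hspa1b summed. Leaving out both libraries numbered 3, and using the 7 libraries with most counts, were added after seeing the data. On simulated counts of this comparison (15232 genes, 200 changed), edgeR recovered 55.8% of changes of log2 size 1 and 84.8% of size 2, with 11.2% false calls. The simulation held no libraries set apart like those numbered 3. It also had more changed genes than the 12 called here, so recovery in these data may be lower.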

Additional observations from a re-analysis of the deposited data

Results flagged for a closer look

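In 4 of 86 sets of 5 libraries (43 members in 2 groups), the highest or lowest library lay farther from the rest than Dixon's critical value of 0.71 on the log2 scale allows, where chance gives about 1 in 20, or 4.3 sets. Hspa1b in TgGRK5-MI replicate 3 was at 225.2 CPM, above 12.7 to 29.1 CPM in the other 4. Dnajb9, an ER-resident HSP40, was at 98.8 CPM in NLC-MI replicate 3, above 35.8 to 45.2 CPM. Trib3 was at 1.7 CPM in the same library, which is only 13 counts, below 2.8 to 3.3 CPM. Hspa5 was at 673.2 CPM in TgGRK5-MI replicate 4, below 903.4 to 976.1 CPM. Hspa1a in the libraries numbered 3 stayed under the critical value. All 4 values come from the 3 libraries with the fewest counts, and the part of depth in them was not tested.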

How the results depend on the processing

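The counts of 0 members at an adjusted p under 0.10 and of 0 higher members were the same under all 20 alternatives run, and the median log2 fold change ran from -0.07 to 0.13. The 1 lower member (Hspb1) became 3 (with Hspa1a and Hspa1b) with a replicate block and also with both libraries numbered 3 left out, and 0 with the 7 libraries with most counts. Leaving out 1 library at a time gave between 0 lower members (without NLC-MI replicate 3 or 4 or TgGRK5-MI replicate 1, 2 or 4) and 4 (without TgGRK5-MI replicate 3). With the replicate block, Hspa1a had a log2 fold change of -0.96 (unadjusted p = 0.0184) and Hspa1b one of -0.90 (unadjusted p = 0.0298), each with an adjusted p of 1.00 in edgeR. Same-numbered libraries had correlations of their deviations of 0.0717, 0.662, 0.381, -0.341 and 0.0848 over genes, (mean 0.172, beside -0.0274 for different numbers), and 1 of the 5 numbers was best matched with its own. Not every pair was over 0.1, so the libraries were not treated as paired. The labels do not say whether a number marks a shared day or batch. By library size alone, r for Hspb2 and Cryab fell to 0.647 (adjusted p = 0.0861), r for Hspd1 and Hspe1 was -0.0257, and r for Hspa5 and Pdia4 was 0.558 (adjusted p = 0.144), beside 0.07 in the TMM scaling. Sign changes were counted among the 26 members named by rule, where no test was passed in either fit. The log2 fold change switched sign in 34 values of 19 of them when 1 library was left out and in 25 values of 12 otherwise. Members outside the 26 crossed 0 too, such as Dnajb9 at -0.15 to 0.45 as each library was left out. Over all genes, edgeR called 12 at an adjusted p under 0.10, DESeq2 69 and limma-voom 50. With 5 mice a group, the interval of a member such as Hspa1a, -3.38 to 1.32 on the log2 scale, leaves large differences undetectable.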

Other observations

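The 21 immediate early genes, transcription factors and other genes that cells switch on within minutes of a stimulus, were counted as a reference list beside the heat shock genes. In TgGRK5-MI, 19 of 21 had a log2 fold change below 0, with a median of -0.29, beside 7586 of all 15232 genes tested. At an unadjusted p under 0.05 in edgeR, 4 were lower (2.08% of all genes tested were). Fos measured 144, 114, 322, 86.0 and 288 CPM in NLC-MI and 60.3, 82.8, 84.8, 73.7 and 74.6 CPM in TgGRK5-MI, so every TgGRK5-MI library lay below every NLC-MI library (log2 fold change -1.34, standard error 0.33, unadjusted p = 0.00177, adjusted p = 0.501 in edgeR). The others were Junb at -0.75 (unadjusted p = 0.00436), Jun at -0.96 (unadjusted p = 0.0282) and Ier2 at -0.50 (unadjusted p = 0.0441). By the exact permutation test 2 of the 21 were under 0.05, and Jun (permutation p = 0.0952) and Ier2 (permutation p = 0.0635) were not. The summed level of the list had a permutation p = 0.0794. Fos was at 84.8 CPM in TgGRK5-MI replicate 3, beside 60.3 to 82.8 CPM in the other 4 libraries of its group. The list was not uniform in this library. Jun was at 239 CPM there, beside 110 to 113 CPM in the other 4, and Junb at 108 CPM, beside 85.0 to 162 CPM.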
